A study of Mus musculus with 23 samples.

Results

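Pde10a, Slc1a3 and Syngr3 are 3 genes of neural signalling, chosen by gene symbol: all probes with these symbols were taken, which gave 1 probe for each gene among 24610 probes and 9850 genes tested. The choice used measured values of these arrays. Pde10a was chosen because it was lower in Q111 than in Q7, over arrays not limited to 1 arm, and Slc1a3 and Syngr3 because they were lower with cystamine than in controls, so these differences are given as descriptions with no test. The 23 arrays, Illumina mouse bead arrays, hold RNA from a pair of striatal cell lines, Q7, labelled wild type, and Q111, its mutant counterpart, a model of Huntington disease. Each line was treated for 12 h with 1 of 3 compounds, ZDON and Boc-DON both at 50 µM and cystamine (CystamineA in some labels) at 250 µM, or was labelled control, with no dose or time given for the controls. Each of the 8 groups has 3 arrays except Q7 with Boc-DON, which has 2. The study concerned transglutaminase 2, an enzyme that cross-links proteins at glutamine residues and that cystamine, among its other actions, inhibits. Each genotype is represented by 1 cell line, so an effect of the huntingtin allele and any other difference between the lines cannot be told apart, and the labels do not say whether replicates came from separate cultures, so p-values cover the spread between these samples only.

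Pde10a encodes phosphodiesterase 10A, an enzyme that breaks down cAMP and cGMP and is known for its high level in the medium spiny neurons of the striatum, where dopamine receptors signal through cAMP. Slc1a3 encodes the glutamate transporter GLAST (EAAT1), found mainly in astrocytes and radial glia, which clears glutamate from the space around synapses. Syngr3 encodes synaptogyrin 3, a membrane protein of synaptic vesicles known to interact with the dopamine transporter.

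The windows of 250 bases before the annotated transcript starts are shown for Pde10a, which has a pair of annotated starts (which of them its probe reads is not known here), and for Slc1a3. They come from RefSeq on GRCm38.p6, are written 5′ to 3′ along the gene, and were searched on both strands for the cAMP response element (TGACGTCA), its shorter core (TGACG), the core of the antioxidant response element (TGACNNNGC) and the GC box (GGGCGG). Capitals mark matches. Of 32851 such windows of the genome's genes, 1.55% hold the full element, 17.8% the shorter core, 10.2% the antioxidant core and 32.7% the GC box, and the shorter core lies within the full element by construction.
Pde10a, window 1, chr17:8801495-8801744, plus strand: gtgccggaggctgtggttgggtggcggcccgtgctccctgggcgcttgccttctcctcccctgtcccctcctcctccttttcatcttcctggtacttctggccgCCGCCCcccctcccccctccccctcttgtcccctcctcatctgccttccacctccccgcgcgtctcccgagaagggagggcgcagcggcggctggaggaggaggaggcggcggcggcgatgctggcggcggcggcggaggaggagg
Pde10a, window 2, chr17:8849735-8849984, plus strand: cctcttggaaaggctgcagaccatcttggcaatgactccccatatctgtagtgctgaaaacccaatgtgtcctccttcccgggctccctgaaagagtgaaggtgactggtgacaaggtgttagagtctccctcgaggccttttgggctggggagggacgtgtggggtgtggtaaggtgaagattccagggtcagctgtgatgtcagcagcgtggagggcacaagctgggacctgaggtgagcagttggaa
Slc1a3, chr15:8710808-8711057, minus strand: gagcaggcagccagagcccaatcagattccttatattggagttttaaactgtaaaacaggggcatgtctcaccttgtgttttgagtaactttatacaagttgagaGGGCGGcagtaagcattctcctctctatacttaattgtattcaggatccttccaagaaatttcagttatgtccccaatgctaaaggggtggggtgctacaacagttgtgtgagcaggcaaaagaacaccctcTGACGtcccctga
The first Pde10a window holds 1 GC box, 146 bases before the start, and the second holds none of the 4 motifs. The Slc1a3 window holds 1 GC box, 145 bases before the start, and 1 shorter core, 13 bases before it. The GC content is 72.8% and 56.0% in the Pde10a windows and 44.8% in the Slc1a3 window, against a median of 52.4% over all windows. A match is a run of letters and was not tested as a site, and the arrays give no reading of these windows.

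Levels are log2 intensities after background correction and quantile normalization, and differences are log2 differences between group means. The median intensity per array lay between 107.4 and 165. All 3 genes were above the median of their array on 23 of 23 arrays, Pde10a between the percentiles 53.6 and 69.9 of its array, Slc1a3 between 64.8 and 84.3, and Syngr3 between 66.7 and 74.7. The arrays lie on 3 BeadChips, and the replicate number in the labels is the BeadChip, with each group once on each chip (Q7 with Boc-DON on chips 1 and 2 only). On 1 array, Q7 with ZDON on BeadChip 3, an 18S rRNA probe read 4531 against 14245 to 27122 on the others, while its median correlation with the other arrays was 0.99, and values without it are given where it enters a result. Many markers of mature cells of the striatum were dim, and some were not. The median reading lay under the array median for 15 of 22 projection neuron markers on the array. It did so for 9 of 15 general neuron markers and 12 of 18 astrocyte and radial glia markers. Of 28 markers of striatal projection neurons, 22 were on the array. Of these 6 were above the array median on every array: Foxp1, Pde1b, Ebf1, Meis2, Pdyn and Ptpn5. Ppp1r1b was above it on 20 arrays by its brighter probe, and the probes for Gad1, Gad2, Drd1, Drd2 and Bcl11b on at most 6. Of 16 general neuron markers, 15 were on the array. Elavl4, Map2, Mapt, Ncam1, Syp and Tubb3, 6 in all, were above the median on every array, while Snap25 was on 1 and Dcx on none. Of 19 astrocyte and radial glia markers, 18 were on the array and 3 were above the median on every array, Gja1, Sox9 and Acsbg1. Ndrg2 was above it on 22 arrays, while Gfap, Aqp4 and Slc1a2 were on none. Of 12 neural progenitor markers, 11 were on the array and 6 were above the median on every array, among them Vim (median intensity 24658). Pax6 and Msi1 were above it on 1 array each, and Prom1 and Hes5 on none.

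**Figure D1:**
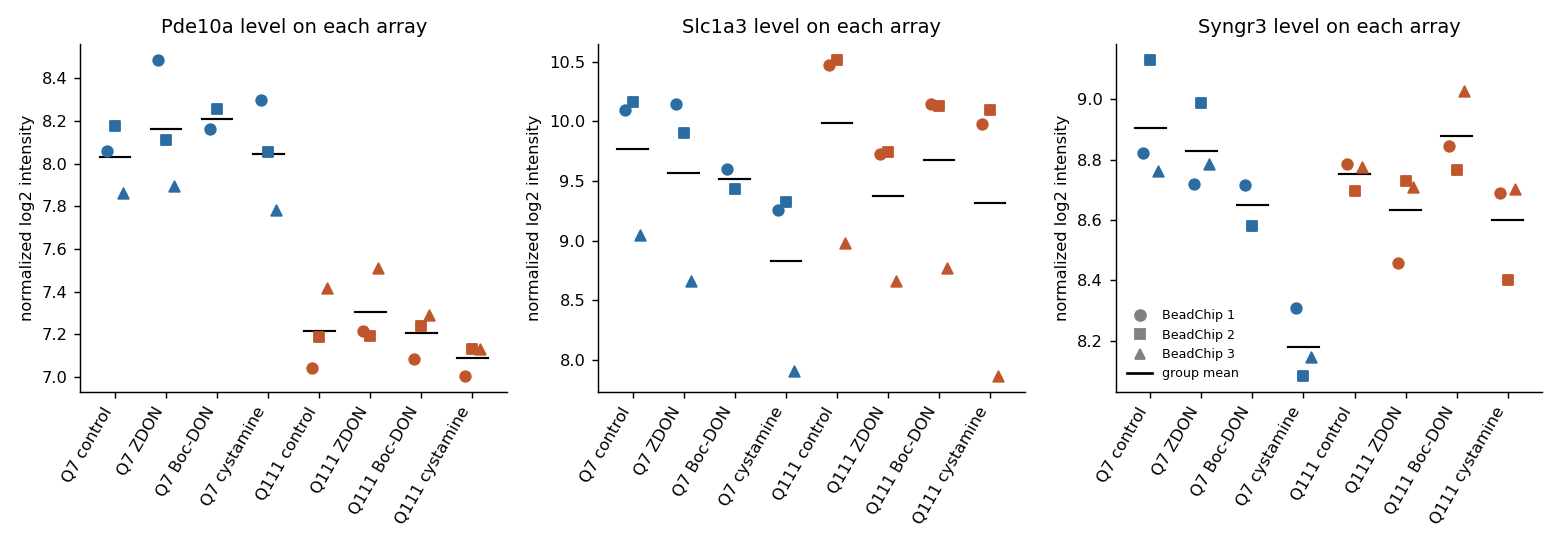
Normalized log2 intensity (y axis) of Pde10a, Slc1a3 and Syngr3 on each of the 23 arrays, by line and treatment (x axis), with Q7 in blue and Q111 in orange, a marker for the BeadChip and a line at each group's mean. For Pde10a every Q111 array lies below every Q7 array, for Slc1a3 the arrays of BeadChip 3 lie below all others, and for Syngr3 the Q7 cystamine arrays are the lowest 3 of all.

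Pde10a was lower in Q111 than in Q7 in every arm, and no compound effect on it passed the threshold. The line difference chose the gene, so it is given by its values in all arms, with no test. The untreated cells had levels of 8.06, 8.18 and 7.86 in Q7 and 7.04, 7.19 and 7.42 in Q111, on chips 1, 2 and 3. That is a difference of -0.82 (SE 0.15, 3 arrays a line), in a comparison where 0.497% of the genes tested passed as lower. Under ZDON the levels were 8.49, 8.11 and 7.89 in Q7 and 7.21, 7.19 and 7.51 in Q111. Under Boc-DON they were 8.16 and 8.26 in Q7 and 7.09, 7.24 and 7.29 in Q111. Under cystamine they were 8.30, 8.05 and 7.78 in Q7 and 7.004, 7.13 and 7.13 in Q111. The highest treated Q111 array (7.51) was below the lowest treated Q7 array (7.78).

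Over the 3 treated arms, weighted equally, the Pde10a difference was -0.94 (SE 0.09, 9 against 8 arrays), a level 0.521 times that of Q7. In this comparison 3.58% of the genes passed as lower and 4.87% as higher, 1.42% had lines that did not overlap over the treated arrays, and 60 genes differed by more in either direction, and nothing is read from the gene's own place there. By arm the difference was -0.86 under ZDON, where 0.406% of all genes passed as lower, -1.004 under Boc-DON, where 0.183% did, and -0.96 under cystamine, where 0.853% did. Over the 26 alternatives run, the value over the treated arms lay between -1.09 and -0.81. Without the Q7 ZDON array of chip 3 the value over the treated arms was -0.99 and that under ZDON -0.99. On a linear scale, before normalization, the treated Q7 arrays read 192 at the lowest, 267 at the median and 491 at the highest, and the treated Q111 arrays 131, 153 and 259.

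The size of the Pde10a difference varied with the chip. On chips 1, 2 and 3 it was -1.02, -0.99 and -0.45 in untreated cells, -1.27, -0.92 and -0.38 under ZDON, and -1.30, -0.92 and -0.65 under cystamine, and under Boc-DON -1.08 and -1.02 on the 2 chips that hold both lines. It was below 0 in all 11 same-chip pairs and smallest on chip 3 in the 3 arms measured there. Averaged over the treated arms the 3 chips gave -1.22, -0.95 and -0.52. Markers of fibroblasts and mesenchyme moved with the line as well: 6 of 7 tested were higher in Q111 over the treated arms and none lower, where 4.87% of all genes passed as higher and 3.58% as lower, with a median of 1.21, and the summed intensity of the list ran from 12870 to 17290 in Q7 and from 16960 to 23170 in Q111. Of 7 neural progenitor markers tested 2 were higher, the homeobox genes Dlx2 (1.69) and Dlx1 (0.52), and none lower. Of 9 astrocyte and radial glia markers Sox9 was higher (0.44) and Ndrg2 lower (-0.77), and of 6 markers of endothelial cells and pericytes Flt1 was lower (-0.85). Of 15 projection neuron markers Ebf1 (0.32) and Pde1b were higher. The part of these markers in the Pde10a difference was not tested.

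No compound changed Pde10a past the threshold in either line. Set against the controls, which the choice of the gene also used, Q7 gave 0.13 with ZDON, 0.18 with Boc-DON and 0.01 with cystamine, and Q111 gave 0.09, -0.01 and -0.13, with an SE of 0.15 to 0.17 and adjusted p of 0.82 or more. Over all genes 0.0203%, 0.0203% and 0.406% passed in either direction in Q7 and 0%, 0.0609% and 0.64% in Q111, in the same order. The widest of the 95% intervals, Boc-DON in Q7, ran from -0.17 to 0.52, and the others lay between -0.44 and 0.44. The 4 Q7 groups had means of 8.03 to 8.21 and the 4 Q111 groups 7.09 to 7.31. This order by line is the difference that chose the gene, and nothing more is read from it. Within each line the neighbouring group means differed by less than the larger SD of the pair, except Q111 with Boc-DON (7.21) above Q111 with cystamine (7.09), whose gap of 0.12 exceeded the SD of 0.11.

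**Figure D2:**
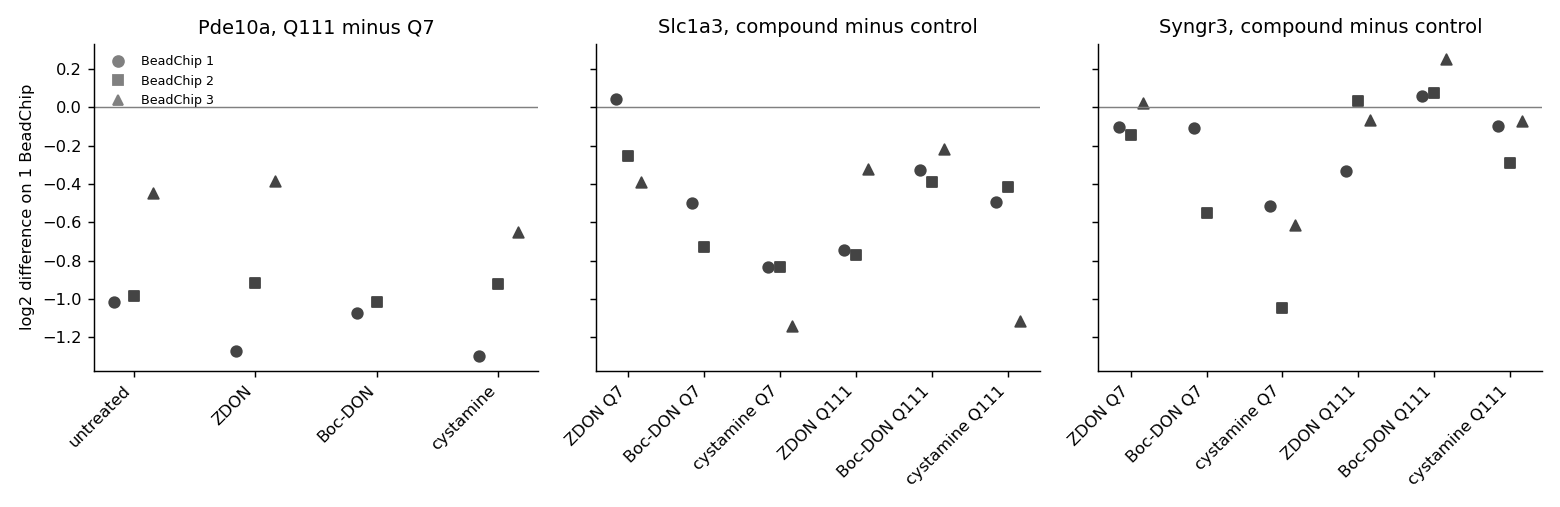
Log2 differences between same-chip pairs of arrays (y axis), with a marker for the BeadChip: Pde10a as Q111 minus Q7 in each arm, and Slc1a3 and Syngr3 as compound minus control in each line. All 11 Pde10a pairs lie below 0, as do all 6 cystamine pairs of Slc1a3 and all 6 of Syngr3.

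Among the other phosphodiesterase genes 1 was higher and 1 lower in Q111. Of 23 other genes of cyclic nucleotide phosphodiesterases listed, 21 were on the array and 11 passed the filter on dim probes. Over the treated arms 1 of the 11 was higher in Q111, 1 was lower and 9 did not pass, where 4.87% of all genes passed as higher and 3.58% as lower, and the median was 0.02, against -0.005 over all genes. Pde1b, a calcium and calmodulin dependent phosphodiesterase that is also abundant in striatal neurons, was higher in Q111 by 0.91 (SE 0.10, adjusted p = 1.76e-06), from 9.97, 10.32 and 10.82 (lowest, median and highest treated array) in Q7 to 10.90, 11.19 and 11.67 in Q111, with no overlap. Pde3b, the phosphodiesterase known for its part in insulin action on fat cells, was lower, at -0.66 (SE 0.12, adjusted p = 0.00083), from 7.95, 8.15 and 8.49 to 7.16, 7.43 and 8.23, with overlap. On chips 1, 2 and 3 Pde1b differed by 0.98, 0.91 and 0.71 and Pde3b at -0.81, -0.77 and -0.43. Of 26 alternatives Pde3b lost its call in 2 and Pde1b in none. Pde8a stood at 0.34 (adjusted p = 0.097, and 0.034 with the chip as a block) and Pde6h at 0.22 (adjusted p = 0.46, and 0.029 with the block). Pde4a, Pde4b, Pde4d, Pde7a, Pde1a, Pde3a and Pde6d lay between -0.18 and 0.18 and did not pass. With cystamine none of the 11 passed in either line, where 0.406% of all genes passed in Q7 and 0.64% in Q111. In limma 3 had an unadjusted p under 0.05 in each line. With the chip as a block in limma Pde6h passed with cystamine in Q111 (0.56, adjusted p = 0.042).

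**Figure D3:**
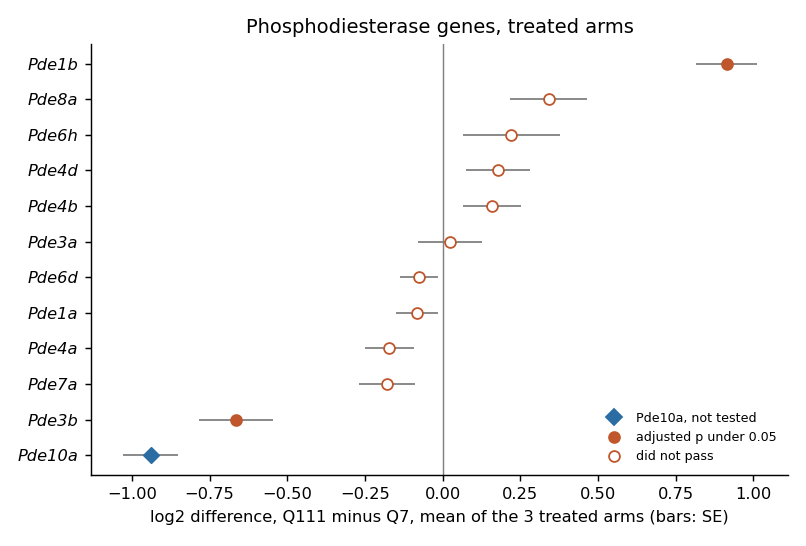
Log2 difference between Q111 and Q7, mean of the 3 treated arms, with SE bars (x axis), for Pde10a (diamond, not tested) and the 11 other phosphodiesterase genes tested (y axis); filled circles passed an adjusted p of 0.05 and open ones did not. Pde10a and Pde3b lie at -0.94 and -0.66 and Pde1b at 0.91, and the other genes lie between -0.18 and 0.34.

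Among 24 tested genes that make, bind or respond to cAMP and cGMP, 2 were higher and 2 lower in Q111 over the treated arms, where 4.87% and 3.58% of all genes passed, with a median of -0.004 against -0.005 over all genes. The natriuretic peptide receptor Npr2, a membrane guanylyl cyclase, was higher by 0.61 (SE 0.09, adjusted p = 6.60e-05) and the adenylyl cyclase Adcy9 by 0.33 (SE 0.09, adjusted p = 0.016). The anchoring protein Akap1 was lower, at -0.33 (SE 0.07, adjusted p = 0.0034) and the protein kinase A subunit Prkar2b at -0.23 (SE 0.06, adjusted p = 0.027). On chip 3 Adcy9 differed by -0.08, against 0.39 and 0.57 on chips 1 and 2. Of 26 alternatives the call was lost in 1 for Npr2, 3 for Adcy9, 3 for Akap1 and 9 for Prkar2b. Median scaling was among them for Akap1 and Prkar2b (adjusted p = 0.14 and 0.41).

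Slc1a3 stood apart by BeadChip. In untreated cells its levels on chips 1, 2 and 3 were 10.10, 10.16 and 9.05 in Q7 and 10.47, 10.52 and 8.98 in Q111. All 7 arrays of chip 3 lay between 7.87 and 9.05 and all 16 arrays of chips 1 and 2 between 9.26 and 10.52, with no overlap. On a linear scale the median was 475 on chip 3 against 1024 and 998.5 on chips 1 and 2. Chip 3 was lower than the mean of chips 1 and 2 in 7 of 7 groups, at -1.42 on average (SD 0.37 over groups), and 5 of 9850 genes had a lower value, while the 5th and the 95th percentile of all genes lay at -0.29 and 0.31. Chip 2 differed from chip 1 by 0.01. Pde10a and Syngr3 showed no such shift, at -0.04 and 0.03. What sets chip 3 apart, beyond being another BeadChip with other replicates, was not tested.

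**Figure D4:**
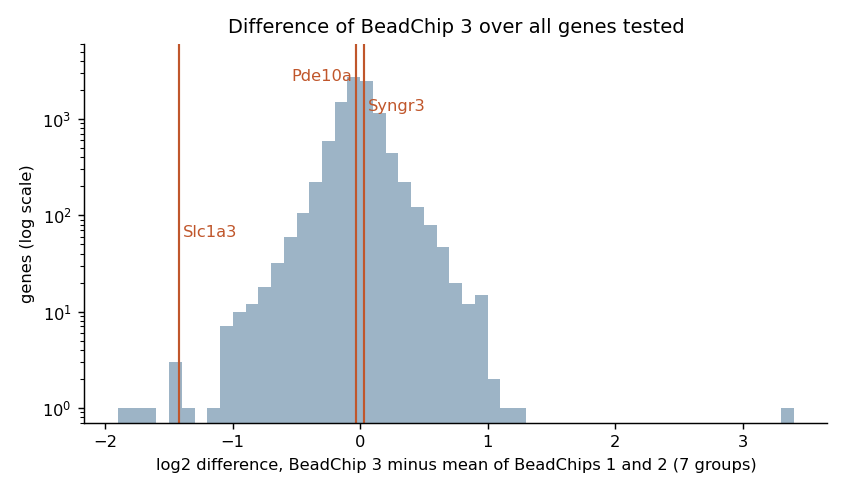
Number of genes (y axis, log scale) by the log2 difference of BeadChip 3 from the mean of BeadChips 1 and 2, averaged over the 7 groups measured on all 3 chips (x axis). Slc1a3 lies at -1.42, outside the bulk of the 9850 genes, and Pde10a and Syngr3 lie near 0.

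With cystamine, the comparison that chose the gene, Slc1a3 read 9.26, 9.32 and 7.91 in Q7 and 9.98, 10.10 and 7.87 in Q111 on chips 1, 2 and 3. Against the control of the same chip that is -0.84, -0.84 and -1.14 in Q7 and -0.49, -0.42 and -1.12 in Q111, below 0 in all 6 pairs, while the groups taken over the 3 chips overlapped. The group means differed by -0.94 in Q7 and -0.68 in Q111, with an SE of 0.57 in each, and 0.16 with the chip as a block. Left without its cystamine array of chip 3, Q111 stood at 0.05, since the control array of that chip then had no partner. Without chip 3 altogether the values were -0.84 in Q7 and -0.46 in Q111. In these comparisons 0.102% of all genes passed as lower in Q7 and 0.173% in Q111, and nothing is read from the gene's own place there.

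Slc1a3 was also read after ZDON and Boc-DON, the compounds that did not choose it. ZDON gave 10.14, 9.91 and 8.66 in Q7 and 9.73, 9.74 and 8.66 in Q111. Boc-DON gave 9.60 and 9.43 in Q7, on chips 1 and 2, and 10.15, 10.13 and 8.77 in Q111. Against the control of its chip, ZDON in Q111 stood at -0.74, -0.77 and -0.32 and in Q7 at 0.05, -0.25 and -0.39. Boc-DON stood at -0.50 and -0.73 in Q7 and at -0.33, -0.39 and -0.22 in Q111. Over all chips none of these 4 effects passed: the differences were -0.61 for ZDON in Q111, -0.20 for ZDON in Q7, -0.31 for Boc-DON in Q111 and -0.25 for Boc-DON in Q7, with adjusted p of 0.90 or more, and 0.13 or more with the chip as a block, where Boc-DON in Q7 moved to -0.73. Without the Q7 ZDON array of chip 3, ZDON in Q7 stood at 0.26. Without the block 0% and 0.0609% of all genes passed with ZDON and Boc-DON in Q111, and 0.0203% with each in Q7. These 4 effects share their controls with the cystamine comparison that chose the gene.

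Chip 3 was then left out because Slc1a3 stood apart there, which leaves 16 arrays with 8 residual degrees of freedom. These values still use the control arrays that chose the gene and are not independent of that choice. ZDON in Q111 stood at -0.76 (SE 0.10, adjusted p = 0.0091), where 0.0406% of genes passed as lower, and Boc-DON in Q7 at -0.61 (adjusted p = 0.014), where 0.457% did. ZDON in Q7 (-0.10, adjusted p = 0.70) and Boc-DON in Q111 (-0.36, adjusted p = 0.17) did not pass. ZDON and Boc-DON, given at the same dose for the same time and compared without the controls, then differed in Q7 by 0.51 (adjusted p = 0.032, 1.1% of genes higher), with Slc1a3 higher under ZDON, and in Q111 by -0.40 (adjusted p = 0.25). Over all 23 arrays the same differences were 0.06 (95% interval -1.28 to 1.39) and -0.30 (-1.49 to 0.89). With the chip as a block they were 0.53 (0.15 to 0.91, adjusted p = 0.37) and -0.30 (-0.63 to 0.03).

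The line difference of Slc1a3 was tested over the ZDON and Boc-DON arms, whose arrays the choice of the gene did not use. It was -0.01 (SE 0.43, adjusted p = 0.99), and 0.22 with the block (95% interval -0.03 to 0.48, adjusted p = 0.35), where 3.15% and 6.27% of genes passed. By arm it was -0.19 under ZDON (adjusted p = 0.97) and 0.17 under Boc-DON (adjusted p = 0.96). Q7 with Boc-DON has no array on chip 3, where Slc1a3 was lower. Without the block, the values for that arm and for both arms together therefore set unlike chips against each other. With the block the Boc-DON arm stood at 0.64 (95% interval 0.26 to 1.02, adjusted p = 0.084), and its same-chip pairs at 0.55 and 0.70. On chips 1 and 2 alone the Boc-DON arm passed, with Q111 higher by 0.62 (adjusted p = 0.0029, 2.72% of genes higher). Untreated Q111 stood at 0.22 above Q7 (adjusted p = 0.94) and at 0.38, 0.36 and -0.07 on the 3 chips. Under cystamine, given without a test because these arrays chose the gene, Q111 stood at 0.48, and at 0.72, 0.78 and -0.04 by chip. By group mean Slc1a3 ran from 9.99 in untreated Q111 and 9.77 in untreated Q7 down to 8.83 in Q7 with cystamine, and no pair of neighbouring groups differed by more than the larger SD.

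Of 25 genes of glutamate transport and the glutamate and glutamine cycle besides Slc1a3, 20 were on the array and 10 were tested, and over the treated arms 2 were higher in Q111 and none lower, where 4.87% and 3.58% of all genes passed (median 0.03 against -0.005 over all genes). Slc1a4, a carrier of neutral amino acids of the same family, was higher by 0.34 (SE 0.08, adjusted p = 0.0054), and Slc7a11, the cystine and glutamate exchanger, by 0.35 (adjusted p = 0.029), though Slc7a11 stood at -0.004 on chip 3 and lost its call in 13 of 26 alternatives (adjusted p up to 0.58). Slc1a4 lost its call in 2 of 26 alternatives. The other SLC1 genes tested, Slc1a5 at -0.15 and Slc1a6 at -0.08, did not pass. With cystamine 1 of the 10 passed, where 0.406% of all genes passed in Q7 and 0.64% in Q111. It was the same gene in both lines: Slc7a11 rose by 1.38 in Q7 (SE 0.16, adjusted p = 5.78e-05) and 1.07 in Q111 (adjusted p = 0.0015). Slc1a4, Slc1a5 and Slc1a6 lay between -0.16 and 0.38 with cystamine and did not pass.

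Syngr3 was lowest in Q7 cells with cystamine, the comparison that chose it. Its levels on chips 1, 2 and 3 were 8.82, 9.13 and 8.76 in untreated Q7 and 8.31, 8.08 and 8.15 in Q7 with cystamine. In Q111 they were 8.79, 8.69 and 8.77 untreated and 8.69, 8.40 and 8.70 with cystamine. The group means differed by -0.73 in Q7 (SE 0.12), and by -0.51, -1.05 and -0.62 on the 3 chips, and in Q111 by -0.15, and at -0.10, -0.29 and -0.07. All 6 same-chip pairs were below 0, and none of the Q111 pairs was as low as any Q7 pair. On a linear scale the Q7 arrays went from 593, 485 and 423 untreated to 296, 196 and 255.

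The difference between the lines in the Syngr3 response to cystamine was 0.57, given without a test since it holds the arrays that chose the gene. Whether the lines responded unequally to a compound was tested for ZDON and Boc-DON with all 3 genes and for cystamine with Pde10a. These tests are not independent of the choice of the genes. They hold the control arrays that chose Slc1a3 and Syngr3, and for Pde10a they set line differences, which chose it, against each other. None of these 7 passed (smallest adjusted p = 0.9985, and 0.95 with the block), and 1 had an unadjusted p under 0.05 in limma and 0 with the block. None of the 9850 genes passed in any of the 3 responses, a share of 0%.

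ZDON and Boc-DON did not change Syngr3 past the threshold, in comparisons where 0% to 0.0609% of all genes passed. ZDON gave 8.72, 8.99 and 8.78 in Q7 and 8.46, 8.73 and 8.71 in Q111. Boc-DON gave 8.72 and 8.58 in Q7 and 8.84, 8.77 and 9.03 in Q111. Against the shared controls that is -0.08 and -0.12 with ZDON in Q7 and Q111, and -0.26 and 0.13 with Boc-DON, with adjusted p of 0.69 or more, and -0.05 for ZDON in Q7 without its array of chip 3. On the 2 shared chips Boc-DON in Q7 stood at -0.11 and -0.55 against control.

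Over the ZDON and Boc-DON arms the lines differed in Syngr3 by 0.02 (SE 0.09, 95% interval -0.17 to 0.21, adjusted p = 0.96). By arm Q111 stood at -0.20 under ZDON (adjusted p = 0.71) and 0.23 under Boc-DON (adjusted p = 0.62), and untreated at -0.15 (adjusted p = 0.73). Under cystamine, given without a test, it stood at 0.42, and at 0.38, 0.32 and 0.56 on the 3 chips. By group mean Syngr3 ran from 8.90 in untreated Q7 to 8.60 in Q111 with cystamine over 7 groups and then 8.18 in Q7 with cystamine, where the last step of 0.42 exceeded the larger SD of 0.17. Of the other steps, that from untreated Q111 (8.75) to Q7 with Boc-DON (8.65) was just above the larger SD.

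**Figure D5:**
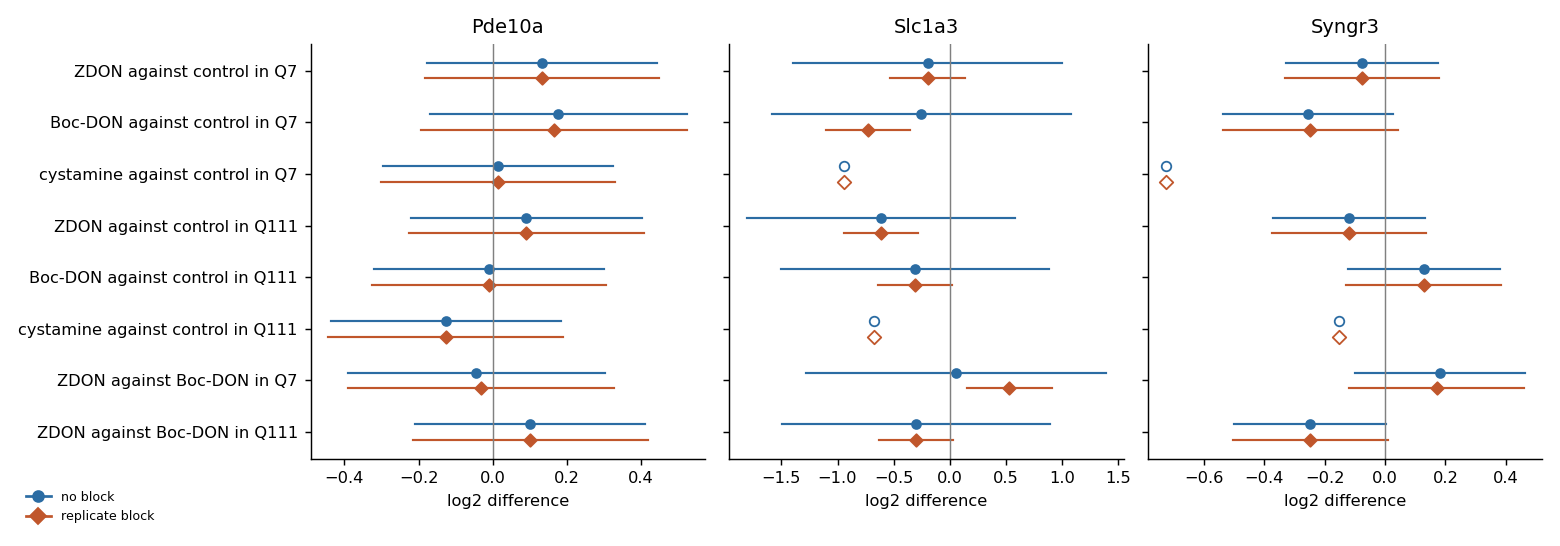
Log2 differences (x axis) of each compound from control in each line and of ZDON from Boc-DON, for Pde10a, Slc1a3 and Syngr3, without a block (blue circles) and with the BeadChip as a block (orange diamonds). Bars are 95% intervals, and open symbols without bars are the cystamine comparisons that chose Slc1a3 and Syngr3. The Slc1a3 intervals narrow with the block, and those of Pde10a and Syngr3 change little.

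ZDON and Boc-DON were compared directly for the 3 genes in both lines, 6 pairs at 50 µM for 12 h. Over all arrays none passed (smallest adjusted p = 0.83, and 0.37 with the block, adjusted over all genes). Of all 9850 genes 0% passed in either line, and at most 18 genes passed in a line with the block. Of the 6, none had an unadjusted p under 0.05 in limma and 1 had with the block. For Pde10a the difference was -0.04 in Q7 (95% interval -0.39 to 0.30) and 0.10 in Q111 (-0.21 to 0.41). For Syngr3 it was 0.18 in Q7 (-0.10 to 0.46) and -0.25 in Q111 (-0.50 to 0.004). These intervals still hold differences of 0.3 or more in size, so a missed threshold does not show that the compounds act alike.

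Of the 7 other genes of the synaptogyrin and synaptophysin families all were on the array and 5 were tested, Syngr1, Syngr2, Syp, Sypl and Sypl2, and none passed between the lines or with cystamine, nor at an unadjusted p under 0.05 in limma. With cystamine Syngr1 stood at -0.15 in Q7 and 0.03 in Q111, and Syngr2 at -0.04 and -0.06. Over all genes 0.406% passed with cystamine in Q7 and 0.64% in Q111. Of 50 listed genes of synaptic vesicles and release, 43 were on the array and 26 were tested. Over the treated arms 2 of these were lower in Q111 and none higher, where 3.58% and 4.87% of all genes passed, with a median of 0.05 against -0.005 over all genes. Unc13b, a vesicle priming factor, was lower, at -0.58 (SE 0.10, adjusted p = 0.00046), and the plasma membrane SNARE Stx1a at -0.37 (SE 0.08, adjusted p = 0.0056). Stx1a stood at 0.02 on chip 3. Its call was lost in 3 of 26 alternatives, among them median scaling (adjusted p = 0.10 in limma), and that of Unc13b in 2. With cystamine none of the 26 passed in Q7, with 5 at an unadjusted p under 0.05 in limma. In Q111 the vesicle SNARE Vamp2 was lower, at -0.49 (adjusted p = 0.048), a call that was lost in 9 of 15 alternative settings.

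Across the 23 arrays, which share groups and chips, Pde10a had a Pearson correlation of -0.07 with Slc1a3 and -0.08 with Syngr3. That between Slc1a3 and Syngr3 was 0.28. Once chip means were removed the values were -0.31, -0.08 and 0.62 in the same order. Slc1a3 and Syngr3 were both chosen for lower levels with cystamine, so their correlation is not independent of the choice. The genes most like Pde10a were Vangl2, a planar cell polarity gene (r = 0.96), Gramd1b (0.95), Hhex, a homeobox transcription factor (0.93), the retinoic acid binding protein Crabp1 (0.92) and Rgs17, a regulator of G protein signalling (0.92). Over the treated arms the 5 stood at -0.57 to -1.78 in Q111 against Q7, a direction that their choice by correlation fixes. With line means removed their correlations ran from 0.18 for Rgs17 to 0.71 for Vangl2. The genes most like Slc1a3 were Isg15, a ubiquitin-like protein induced by interferon (r = 0.89), Igfbp4 (0.88), Wsb2 (0.84), Sh3kbp1 (0.83) and Commd4 (0.83). On chip 3 they stood, by the same choice, below the other chips, at -0.22 for Wsb2 to -1.33 for Isg15, and with chip means removed their correlations were 0.36 to 0.67. The genes most like Syngr3 were Ccdc136 (r = 0.86), Evc (0.78), Dolk (0.78), Apbb1 (0.77) and Fcsk (0.77). With cystamine in Q7, where Syngr3 was lowest, they stood at -0.35 to -0.49, a direction that follows from their choice by correlation.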

How the data were processed

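The authors' deposited table gives an intensity for each probe, not yet normalized, and BeadStudio is the tool named per the submitters' processing notes. Its background handling is not stated there. The series matrix, whose log2 values the authors deposited as well, matched quantile-normalized log2 intensities within 5e-09 and served as an alternative. 1 column of array values matched no sample and was not used. In limma 3.58.1 (R 4.3.3) the normexp correction (offset 50) was followed by quantile normalization and the log2 transform. An 18S rRNA probe was left out of the 24611 probes, which leaves 19851 with 1 gene symbol, 4759 with none and 0 with several. A probe was kept if it exceeded its array's median on 2 or more arrays, and each gene was read from its brightest kept probe. All 23 arrays entered 1 model with 8 group means (15 residual degrees of freedom, 13 with the BeadChip as a block), with Benjamini-Hochberg adjustment over all genes at 0.05. Replicate numbers name the BeadChip, so they pair the arrays: after group means were removed, 72 of 77 pairs with 1 number correlated above 0 (median 0.21), against 44 of 154 others (median -0.11). Precision is limited by the number of arrays. Pde10a between the lines, and Slc1a3 and Syngr3 wherever cystamine arrays enter, were not tested, since these differences chose the genes. The members and gene lists were chosen with earlier results of these data known. Genes named besides the members are list genes, up to 4 per list and comparison by adjusted p, all phosphodiesterases, SLC1 genes and synaptogyrins tested, marker genes, and the 5 genes most correlated with each member over the arrays. Alternatives were the block, leaving out each array or BeadChip, the compared groups alone, the deposited log2 values, median scaling, and doing without the filter or without the background correction. Promoter windows came from RefSeq tables, matched by symbol.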

Additional observations from a re-analysis of the deposited data

Results flagged for a closer look

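Slc1a3 and Syngr3 met the criterion for a closer look, each because the same-chip pairs all pointed one way in one set of arrays and the opposite way in another. The criterion was applied to the 3 genes alone, so the share of all genes that would meet it is not known. Each comparison rests on few pairs, several share arrays, and nothing is read from meeting it. With Boc-DON Syngr3 stood below control in both Q7 pairs (-0.26 over the groups) and above control in all 3 Q111 pairs (0.13), and the difference between the lines in this response was 0.38 (adjusted p = 0.9985 by limma). Under ZDON Syngr3 was lower in Q111 than in Q7 in all 3 pairs (-0.20), while under Boc-DON it was higher in both pairs (0.23), a difference of -0.43, which was not tested. The same -0.43 separates ZDON against Boc-DON in Q111 (-0.25, below 0 in all 3 pairs) from that in Q7 (0.18, above 0 in both pairs, by 0.0011 in 1 of them). Under cystamine Syngr3 was higher in Q111 in all 3 pairs (0.42), which differs from the ZDON arm by -0.62, again not tested, and these are arrays that chose the gene. For Slc1a3, ZDON against Boc-DON was below 0 in all 3 Q111 pairs (-0.30) and above 0 in both Q7 pairs (0.06 over the groups, which are unequal over the chips), a difference of -0.36, which was not tested.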

How the results depend on the processing

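The 3 genes gave 41 results and 638 alternative values: 585 kept direction and side of the threshold (or, untested, moved by less than the spread between replicates), 4 gained a call and 49 changed sign. The results that changed sign had passed no threshold, apart from Slc1a3 with cystamine in Q111, which was not tested. Pde10a over the treated arms stood at -0.94 with the replicate block, which changed the call of no member result that was tested. The alternative of other probes was not run, since each gene has 1. Leaving out chip 1 or 2 also removes an array from every group, and fewer genes then passed. Leaving out chip 3 removes an array from every group but Q7 with Boc-DON, and more genes then passed. Why chip 3 differs was not tested.

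Without BeadChip 3 Slc1a3 gained calls for the line difference under Boc-DON (0.62) and for ZDON against Boc-DON in Q7 (0.51). It also gained them against control for ZDON in Q111 (-0.76) and Boc-DON in Q7 (-0.61). These effects against control use the control arrays that chose the gene and are not independent of that choice. Slc1a3 itself stood apart on BeadChip 3, and leaving that chip out leaves 16 arrays with 8 residual degrees of freedom. Nothing more is read from the gained calls.

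Signs changed for Pde10a with ZDON in Q7 (-0.015 without BeadChip 1), Boc-DON in Q111 (0.047 without BeadChip 3), cystamine in Q7 (-0.14 with median scaling, -0.10 without BeadChip 1) and ZDON against Boc-DON in Q7 (0.082 with median scaling, 0.029 without BeadChip 2, 0.091 without BeadChip 3). They changed for Slc1a3 in the line difference under Boc-DON (-0.14 without BeadChip 2), over the ZDON and Boc-DON arms (0.22 with the block, 0.10 with median scaling, 0.17 without BeadChip 3), with Boc-DON in Q7 (0.024 without BeadChip 2) and for ZDON against Boc-DON in Q7 (-0.15 without BeadChip 1, -0.20 without BeadChip 2). For Syngr3 the line difference over the ZDON and Boc-DON arms changed to -0.051 without BeadChip 3.

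Leaving out 1 array at a time also changed signs. For Pde10a the range was -0.012 to 0.19 for ZDON in Q111, -0.029 to 0.27 for ZDON in Q7, -0.10 to 0.090 for Boc-DON in Q111, -0.11 to 0.15 for cystamine in Q7, -0.0018 to 0.16 for ZDON against Boc-DON in Q111 and -0.21 to 0.091 for the same in Q7. For Slc1a3 the line difference ranged from -0.14 to 0.73 untreated, -0.65 to 0.17 under ZDON, -0.068 to 0.62 under Boc-DON and -0.24 to 0.22 over both arms. The Slc1a3 compound effects ranged from -0.56 to 0.26 for ZDON in Q7, -0.81 to 0.15 for Boc-DON in Q111, -1.18 to 0.049 for cystamine in Q111, -0.76 to 0.056 for ZDON against Boc-DON in Q111 and -0.23 to 0.51 for the same in Q7. For Syngr3 they ranged from -0.020 to 0.061 for the line difference over the ZDON and Boc-DON arms and -0.15 to 0.037 for ZDON in Q7.

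The number of genes that passed moved with the same settings. Over the treated arms it was 833, with 1321 under the block and 106, 100 and 1719 without BeadChips 1, 2 and 3. Untreated it was 153, with 318 under the block, 88 with the compared groups alone, and 1, 9 and 392 without BeadChips 1, 2 and 3. Under ZDON it was 118, with 233, 58, and 3, 1 and 401 in the same order. Under Boc-DON it was 58, with 182 under the block and 0, 0 and 409 without the chips. Under cystamine it was 281, with 629 under the block, 73 with the groups alone, and 4, 3 and 1295. Over the ZDON and Boc-DON arms it was 310, with 618 under the block and 26, 25 and 789. Cystamine against control gave 63 in Q111, with 170 under the block, 37 with median scaling, 15 with the groups alone, and 5, 11 and 225 without the chips. In Q7 it gave 40, with 91 under the block, 14 with median scaling, 12 with the groups alone, and 4, 7 and 86.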
